A study of Mus musculus with 8 samples.

Results

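The genes described here encode the sarcomere and the proteins that anchor it in heart muscle. They are 36 listed genes of the 39056 in the deposited count table, found by Ensembl identifier and grouped by the structure each protein is best known for. The thin filament is represented by 9 genes, the thick filament by 5, the M band by 4 and the Z disc by 18. The groups are coarse: titin (Ttn) runs from the Z disc to the M band and stands with the thick filament, and the Z disc group includes proteins of the neighbouring I band and of the intercalated disc. RNA came from hearts of HVCN1 null mice (HVCN1-/-, also called Hv1 null, n = 4) and wild-type mice (WT, n = 4) on a C57BL/6 background. All mice were male and 3 months old, and each heart gave 1 poly-A selected RNA-seq library. The HVCN1 null hearts are numbered 1 to 4 and the WT hearts 5 to 8, as in the labels. The comparison asked whether loss of the proton channel HVCN1 went with a different transcript level of any of these genes. How the gene was deleted, whether the mice were littermates and which heart chambers were taken are not given in the sources used here.

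The sarcomere is the contractile unit of striated muscle. Thin filaments of actin carry tropomyosin and the troponin complex, which make contraction depend on calcium, and they slide along thick filaments of myosin. The Z disc crosslinks the thin filaments at either end of the sarcomere and passes force to the desmin network and the cell membrane, while the M band holds the thick filaments in register at its centre. Inherited variants of many of these genes cause cardiomyopathy.

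Total counts ranged from 25851255 to 38874640 per heart, and mitochondrial genes took 23.7% to 30.2% of them. Levels are given as CPM, the counts of a gene relative to a library size that edgeR scaled by TMM. Hvcn1 itself had 16 counts in the HVCN1 null group and 318 in the WT group, a log2 fold change of -4.20 (edgeR quasi-likelihood test, Benjamini-Hochberg adjusted p = 0.000363). Myh6, the main cardiac myosin heavy chain of adult mice, lay between 24793 and 32269.9 CPM in every heart, while the myosins Myh1, Myh2 and Myh4 of skeletal muscle had means of at most 0.0948 CPM in either group. The 8 skeletal muscle genes summed to 1.41 to 3.59 CPM in HVCN1 null and 2.53 to 5.71 CPM in WT hearts, and 3 of the 4 tested were below 0 (median -0.47) with no DEG. Lists of genes of other cell types were checked beside the sarcomere genes. The 6 tested atrial genes were all below 0 on the log2 fold change scale and none was a DEG, and the sum over the 7 listed ran from 322 to 4694 CPM in HVCN1 null hearts and from 87.0 to 8666 CPM in WT hearts. The 10 macrophage genes were all below 0 with no DEG (320.7 to 415.6 CPM against 380.8 to 557.7 CPM summed). The 5 smooth muscle genes were all above 0 (526 to 824 CPM against 400.5 to 486 CPM summed), and among them Acta2, smooth muscle actin, was a DEG that rose by 1.32 on the log2 scale (adjusted p = 0.0466). Acta2 did not keep its call in 6 of the 8 fits that left out a heart, with adjusted p up to 0.149. Of 13 clock genes, Per1 was a DEG that rose by 1.04 on the log2 scale (adjusted p = 0.0178). In the same edgeR quasi-likelihood test, 5 clock genes were higher and 2 lower with an unadjusted p under 0.05. That is 53.8%, against 11.0% of all tested genes. The groups did not overlap for 3 clock genes, all higher in HVCN1 null hearts (23.1%, against 7.06% of all tested genes). The fibroblast, endothelial, adipocyte, erythroid and immediate early lists held no DEG. All 6 erythroid genes (median -0.99) and all 4 tested adipocyte genes (median -0.69) were below 0. So were 6 of 8 fibroblast genes (median -0.14), 6 of 8 endothelial genes (median -0.13) and 2 of 6 immediate early genes (median 0.20). Over all tested genes, 52.7% were below 0 and 1.14% were DEGs. The atrial level was set beside the sarcomere genes in a fit given further on, and the part of the other lists in their values was not tested.

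Myotilin (Myot), a Z disc protein that binds alpha-actinin and actin, was the only DEG among the 36 genes, and it was lower in HVCN1 null hearts. Cardiac actin (Actc1) and the myosin chaperone Unc45b were the other genes whose HVCN1 null values all lay below the WT values, with much smaller differences that did not pass the adjusted threshold. A DEG was a gene with a Benjamini-Hochberg adjusted p under 0.05 in edgeR's quasi-likelihood test, adjusted over all 14796 genes that passed the filter on low counts, and all 36 sarcomere genes passed that filter. The 1 DEG among 36 stands beside 1.14% of all tested genes, or 0.399% for the lower and 0.743% for the higher direction. Without adjustment, 6 sarcomere genes had a p under 0.05, all of them lower (Actc1, Tpm1, Trim54, Myot, Xirp1 and Ankrd23). This is a share of 16.7%, against 11.0% of all tested genes (5.52% lower and 5.46% higher). The values of the genotypes did not overlap for 3 genes (8.33%), all lower, against 7.06% of all tested genes (3.45% lower and 3.6% higher). In a piece of tissue, fewer cells of a type and less RNA per cell cannot be told apart. The p-values measure the spread between these hearts only.

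The log2 fold change was below 0 for 27 of the 36 genes (75.0%), against 52.7% of all tested genes. Its median was -0.15, against -0.01 over all tested genes. By structure, 7 of 9 thin filament genes were below 0 (median -0.02), 4 of 5 thick filament genes (median -0.12), 2 of 4 M band genes (median -0.12) and 14 of 18 Z disc genes (median -0.19). The genes share hearts and libraries, so these counts are a description and carry no test. The 95% intervals reached a median of 0.34 log2 units to either side of the estimate. For 33 genes the interval lay within 1 log2 unit of 0 on either side, and for Myot, Tpm2 and Pdlim3 it reached further.

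**Figure D1:**
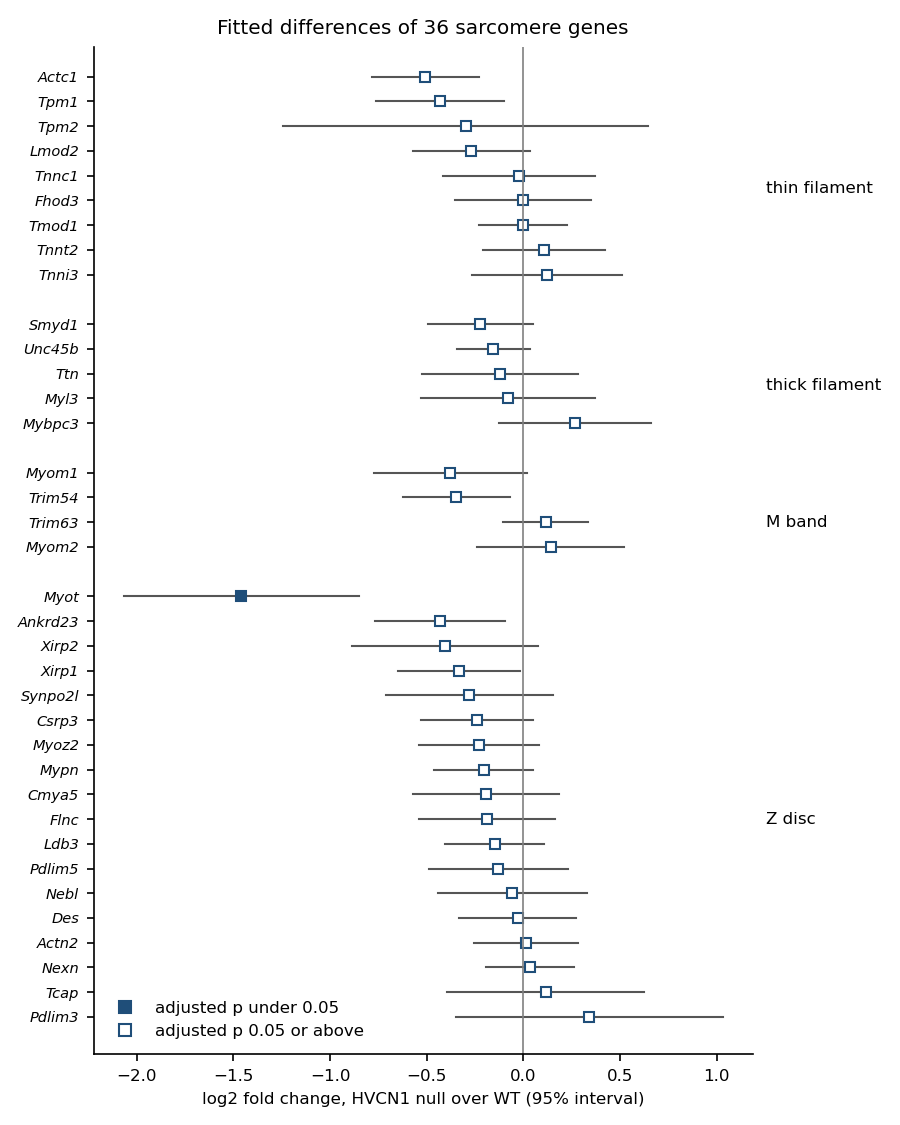
Fitted log2 fold change of each of the 36 genes (HVCN1 null over WT, horizontal axis) with its 95% interval, grouped by structure, from 4 and 4 hearts. The filled square is Myot at -1.46, the only gene past an adjusted p of 0.05, and all other estimates lie between -0.51 and 0.34.

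Actc1 encodes cardiac alpha-actin, the backbone of the thin filament, and was the most abundant of these transcripts in WT hearts. The gene lies on chromosome 2, 114047282 to 114053548 in GRCm38, on the minus strand. HVCN1 null hearts 1 to 4 had 6225, 6078, 6399.6 and 6727 CPM, and WT hearts 5 to 8 had 8449, 10536, 7640.2 and 9501 CPM. Every HVCN1 null heart was below every WT heart, and the HVCN1 null hearts were closer to one another. The means were 6357 ± 279 and 9032 ± 1260 CPM (SD, n = 4 each). The fitted difference was -0.51 on the log2 scale (standard error 0.12, 95% interval -0.78 to -0.23), which corresponds to 29.6% less. It did not pass the threshold in edgeR's quasi-likelihood test (adjusted p = 0.105). It passed with DESeq2 (adjusted p = 0.000585), which called 3.15% of all genes, and with library sizes not scaled (adjusted p = 0.0375), where 1.01% were called.

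Promoter sequences were available for 30 of the 36 genes in RefSeq on GRCm38.p6. Of these, 5 held a CArG box, the sequence bound by serum response factor, on either strand of the 250 bases before a transcript start. That is 16.7%, against 1.62% of 27025 genes searched in the same way. The 30 genes had 40 promoters. Shares here are per gene and were not adjusted for the number of promoters of a gene. The 5 genes were Actc1, Ldb3, Myl3, Myom1 and Nebl. The Actc1 sequence (chr2:114052876-114053125, minus strand) is shown because Actc1 had the most abundant transcript and no overlap between the groups, and the other windows because they hold the same motif in genes with other values. All are written 5′ to 3′ with the CArG box in capitals, and the windows give 15 bases on either side of it.
Actc1 promoter: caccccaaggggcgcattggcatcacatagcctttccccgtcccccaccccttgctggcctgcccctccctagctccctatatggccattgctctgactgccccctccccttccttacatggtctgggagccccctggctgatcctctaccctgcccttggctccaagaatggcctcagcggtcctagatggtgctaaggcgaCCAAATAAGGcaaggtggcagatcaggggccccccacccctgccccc
Ldb3 window: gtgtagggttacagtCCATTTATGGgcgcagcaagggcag
Myl3 window: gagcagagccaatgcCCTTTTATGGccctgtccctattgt
Myom1 window: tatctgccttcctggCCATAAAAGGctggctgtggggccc
Nebl window: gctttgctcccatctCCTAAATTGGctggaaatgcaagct
The windows lie at chr14:34588692-34588731 (minus strand) for Ldb3, chr9:110763578-110763617 (plus strand) for Myl3, chr17:71019443-71019482 (plus strand) for Myom1 and chr2:17462994-17463033 (minus strand) for Nebl. The box began 47 bases before the transcript start for Actc1 and between 85 and 162 bases before it for the other genes. The log2 fold changes of the 5 genes with the box ranged from -0.51 (Actc1) to -0.06 (Nebl), and Actc1 was the only one with an unadjusted p under 0.05. A MEF2 site, named for the muscle transcription factor family, was present for Mybpc3, Myoz2, Synpo2l, Ttn and Xirp2 (16.7% against 3.42% of all genes). The MCAT element CATTCC, searched on both strands, was present for 12 genes (40.0% against 14.4%) and the E box CAGCTG for 9 (30.0% against 14.7%). TATAAA was present for 4 genes (13.3% against 14.3%). A match is a run of letters and not a shown binding site. None of the 5 motifs was found before a start of Unc45b, the other gene of this promoter table without overlap between the groups.

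Tpm1 encodes alpha-tropomyosin, which lies along the actin filament and covers its myosin binding sites (chromosome 9, 67022590 to 67049406, minus strand). The HVCN1 null hearts had 4137, 4586, 6490.2 and 5443 CPM and the WT hearts 6884, 7469, 6279 and 7215 CPM. HVCN1 null heart 3 was above WT heart 7, and otherwise the HVCN1 null hearts were lower. This gave a log2 fold change of -0.43 (standard error 0.15, 95% interval -0.76 to -0.10, edgeR quasi-likelihood adjusted p = 0.282). Tmod1 encodes tropomodulin, which caps the pointed end of the thin filament (chromosome 4, 46038935 to 46116032). It had the smallest difference of the thin filament genes, with HVCN1 null hearts at 293, 326, 333 and 339.8 CPM and WT hearts at 288, 324, 359 and 323 CPM. Its log2 fold change was -0.0020 (95% interval -0.23 to 0.22, adjusted p = 0.998) and was above 0 under 8 of 18 alternative settings.

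The troponin genes did not share the pattern of Actc1. Tnnt2 (troponin T) lay at 7212 ± 1235 CPM in HVCN1 null and 6694 ± 543 CPM in WT hearts (log2 fold change 0.11), Tnni3 (troponin I, the inhibitory subunit) at 3723 ± 879 and 3421 ± 388 CPM (0.12) and Tnnc1 (troponin C, the calcium sensor) at 1972 ± 263 and 2004 ± 440.3 CPM (-0.02). The standard errors of these 3 values were 0.14 to 0.18, and the adjusted p was 0.889 or above. Lmod2, leiomodin, which lengthens thin filaments at the pointed end, had a log2 fold change of -0.27 (95% interval -0.57 to 0.03). The formin Fhod3, which assembles actin filaments, had a log2 fold change of -0.0028 (95% interval -0.35 to 0.35).

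**Figure D2:**
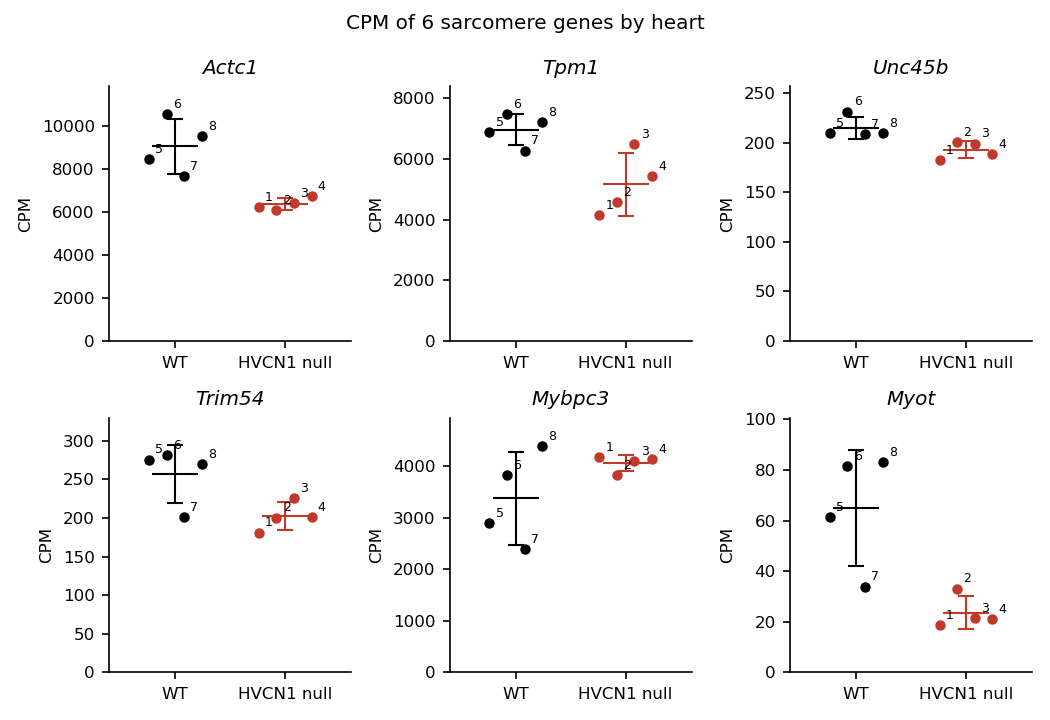
CPM of Actc1, Tpm1, Unc45b, Trim54, Mybpc3 and Myot in each numbered heart, with group mean and SD (horizontal lines and bars, n = 4 each) on axes that start at 0. The groups do not overlap for Actc1, Unc45b and Myot, and the 4 HVCN1 null points of Mybpc3 lie within the range of the WT points.

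The thick filament genes held no DEG and no gene with an unadjusted p under 0.05. Mybpc3, cardiac myosin binding protein C, which regulates cross-bridge cycling, lies on chromosome 2, 91118144 to 91136516. Its level was 4182, 3834, 4098 and 4145 CPM in HVCN1 null hearts and 2890.1, 3822, 2392 and 4396 CPM in WT hearts. The HVCN1 null hearts lay close together (coefficient of variation 3.88%), while WT hearts 5 and 7 were low and WT hearts 6 and 8 near or above the HVCN1 null hearts (26.7%). Between the genotypes the log2 fold change was 0.27 (standard error 0.18, 95% interval -0.12 to 0.66, edgeR quasi-likelihood adjusted p = 0.691).

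Unc45b encodes a chaperone that folds the myosin head (chromosome 11, 82910550 to 82943403). It had 183, 201, 199 and 189 CPM in HVCN1 null hearts and 209.6, 232, 209 and 209.7 CPM in WT hearts. All HVCN1 null values were below all WT values, and the gap between the nearest hearts, 201 and 209 CPM, was small. With coefficients of variation of 4.48% and 5.16% it was among the steadiest of these genes, and its log2 fold change was -0.16 (standard error 0.09, 95% interval -0.35 to 0.03, adjusted p = 0.580). Smyd1, a muscle lysine methyltransferase needed for thick filament assembly (chromosome 6, 71213940 to 71322233), had 317, 339.7, 311 and 359 CPM in HVCN1 null and 328, 427, 346 and 447 CPM in WT hearts. HVCN1 null heart 4 exceeded WT hearts 5 and 7, and HVCN1 null heart 2 exceeded WT heart 5. The log2 fold change of Smyd1 was -0.22 (95% interval -0.49 to 0.05, adjusted p = 0.584).

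Myl3, the ventricular essential light chain of myosin (chromosome 9, 110741861 to 110769798), had 3302, 3910.4, 4397 and 5196 CPM in HVCN1 null and 4844, 5122, 2833 and 4949.9 CPM in WT hearts. The groups overlapped over most of their range, WT heart 7 being lowest. Its log2 fold change was -0.08 (95% interval -0.53 to 0.37, adjusted p = 0.954) and was above 0 under 2 of 18 alternative settings. Titin (Ttn), the giant elastic protein, lay at 5008 ± 638 and 5447 ± 1282 CPM, a log2 fold change of -0.12 (95% interval -0.53 to 0.28).

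The M band genes were 2 myomesins, which crosslink the thick filaments, and 2 ubiquitin ligases of the MuRF family. Trim54 (MuRF3; chromosome 5, 31116712 to 31137630) had 181, 200.3, 225 and 201 CPM in HVCN1 null hearts and 276, 281, 200.6 and 269 CPM in WT hearts. WT heart 7 lay among the HVCN1 null hearts, and the other WT hearts were above all of them. The log2 fold change was -0.35 (standard error 0.13, 95% interval -0.62 to -0.07, edgeR quasi-likelihood adjusted p = 0.309). Reads of 50 bases from 19.1% of the positions of its main transcript also match the overlapping opposite-strand gene Gm15469, so its count is uncertain if strand was not used in counting. Trim63 (MuRF1; chromosome 4, 134315120 to 134329629) had 150.03, 159, 181 and 183 CPM in HVCN1 null and 146, 159, 147 and 168 CPM in WT hearts. The groups overlapped, and the log2 fold change was 0.12 (95% interval -0.10 to 0.34, adjusted p = 0.803).

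Myom1, the main myomesin of adult heart (chromosome 17, 71002633 to 71126856), had 893, 1451, 1032 and 1089 CPM in HVCN1 null hearts and 1177, 1617, 1259 and 1753 CPM in WT hearts. HVCN1 null heart 2 was above WT hearts 5 and 7, and the other HVCN1 null hearts were below every WT heart. Its log2 fold change was -0.38 (standard error 0.18, 95% interval -0.78 to 0.02, adjusted p = 0.484). Myom2 had 985, 1597, 1049 and 1071 CPM against 924, 1012, 1043 and 1283 CPM, so the group means differed in the other direction, by 0.14 on the log2 scale (95% interval -0.24 to 0.52, adjusted p = 0.875). HVCN1 null heart 2 held the highest value of both myomesins among the HVCN1 null hearts. Without it, the log2 fold change of Myom1 was -0.53 and that of Myom2 -0.04.

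In the Z disc, Myot (chromosome 18, 44334074 to 44355724) had 18.8, 33.1, 21.4 and 21.1 CPM in the 4 HVCN1 null hearts, in the order of their numbers, and 61.3, 81.6, 33.9 and 83.2 CPM in the WT hearts. HVCN1 null heart 2 was the highest and WT heart 7 the lowest of its group, and these nearest values almost met. The means were 23.6 ± 6.44 and 65.0 ± 23.0 CPM. Myot fell by 1.46 on the log2 scale (standard error 0.27, 95% interval -2.07 to -0.85, edgeR quasi-likelihood adjusted p = 0.0358), or by 63.6%. The call was not stable: it was kept in 2 of the 8 fits that left out a heart, those without HVCN1 null heart 2 or WT heart 7. These 8 fits called 71 to 152 DEGs among all tested genes, against 169 with all hearts. Without HVCN1 null heart 1, 3 or 4 the adjusted p was 0.122, 0.112 and 0.0825, and without WT heart 5, 6 or 8 it was 0.0834, 0.113 and 0.0921. Its log2 fold change stayed between -1.67 and -1.31 in all 8. No 50-base stretch of the main Myot transcript matched a transcript of another annotated gene exactly.

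Ankrd23, an ankyrin repeat protein that binds titin in the I band (chromosome 1, 36530188 to 36536883, minus strand), had 18.1, 16.4, 14.3 and 13.0 CPM in HVCN1 null hearts and 20.4, 25.1, 15.6 and 22.2 CPM in WT hearts. WT heart 7 lay among the HVCN1 null hearts and the other WT hearts were above them. The log2 fold change was -0.43 (standard error 0.15, 95% interval -0.77 to -0.09, adjusted p = 0.291). Its count is uncertain, because 84.2% of the 50-base positions also match Gm42417 on the same strand. Actn2, alpha-actinin, the crosslinker of the Z disc (chromosome 13, 12269426 to 12340760, minus strand), had 1654, 1932, 1729.6 and 1829.6 CPM in HVCN1 null and 1612, 2001, 1537 and 1933 CPM in WT hearts. The ranges overlapped nearly fully. Its log2 fold change was 0.01 (95% interval -0.26 to 0.28, adjusted p = 0.994), and it was below 0 under 4 of 18 alternative settings.

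The other 15 Z disc genes gave adjusted p-values from 0.421 to 0.980. The lowest was that of Xirp1, a Xin protein of the intercalated disc, with a log2 fold change of -0.33 (95% interval -0.65 to -0.02), beside -0.41 (95% interval -0.89 to 0.08) for its relative Xirp2. Synpo2l, an actin-associated protein, had -0.28, and HVCN1 null heart 2 at 202 CPM stood above its other HVCN1 null hearts (105 to 129 CPM). Csrp3, the muscle LIM protein (-0.24), Myoz2, a calsarcin that binds calcineurin (-0.23), and Mypn, myopalladin (-0.21), had intervals that reached past 0. Desmin (Des), the intermediate filament of muscle, had -0.03 (95% interval -0.33 to 0.27). Nexn, nexilin, had 0.03 (95% interval -0.19 to 0.26). The titin cap Tcap had 0.12, and HVCN1 null hearts 3 and 4, at 907 and 912 CPM, were far above hearts 1 and 2, at 443 and 521 CPM.

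**Figure D3:**
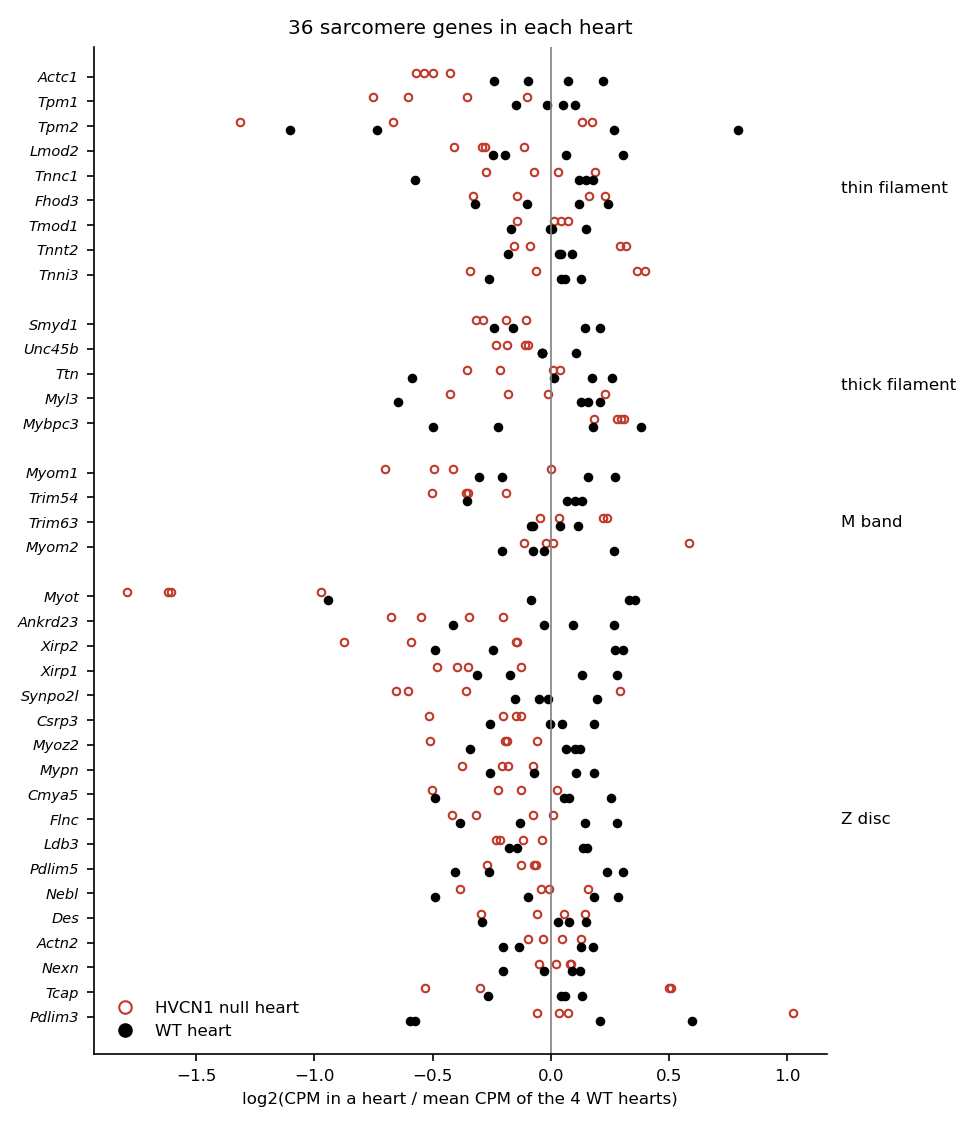
Level of each of the 36 genes in each heart as log2 of its CPM over the mean of the 4 WT hearts (horizontal axis), with open circles for HVCN1 null and filled circles for WT hearts, grouped by structure. The open circles of Actc1, Unc45b and Myot lie to the left of all filled circles of the same gene, and all other genes overlap.

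The 36 transcripts covered a wide range of levels. Per kilobase of the principal transcript, WT means were 6131 CPM for Actc1, 5578 for Tnnt2, 4736 for Myl3, 3751 for Tnni3, 3668 for Tpm1 and 2780 for Tnnc1, and then 987 for Csrp3 and 811 for Mybpc3. The lowest were Myot (29.4), Tpm2 (25.6), Ankrd23 (10.6) and Pdlim3 (9.44). The beta-tropomyosin gene Tpm2 thus stood far below Tpm1. With a WT coefficient of variation of 13.9% for Actc1 and 8.12% for Tnnt2, the order of these neighbours was within the spread between hearts, as was that of Tnni3 and Tpm1. All 36 genes together took 7.17 ± 0.275% of the counts of nuclear genes in HVCN1 null hearts (6.77% to 7.40%) and 7.73 ± 0.651% in WT hearts (7.03% to 8.37%). The groups overlapped, and the difference of -0.557 percentage points was larger than the SD of the HVCN1 null hearts and smaller than that of the WT hearts. The lowest count of any of the 36 genes in any heart was 297, so counting error was small beside the spread between hearts.

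A wider list of 58 other sarcomere genes was read in the same way, and 54 were tested. The list includes Myl4, Myl7 and Mybphl, which are also in the atrial list. Of the 54 tested genes, 41 were below 0 (75.9%, against 52.7% of all tested genes), with a median of -0.10. They held 1 DEG, where 1.14% of all tested genes were DEGs. It was Capn3, calpain 3, a muscle protease anchored on titin, which fell by 1.58 on the log2 scale (adjusted p = 0.0489). Its means were 1.21 ± 0.281 CPM in HVCN1 null and 3.66 ± 1.64 CPM in WT hearts, and the call was kept in 1 of the 8 fits that left out a heart. The groups did not overlap for 4 of the 54 (7.41%, against 7.06% of all tested genes): Capn3, Tpm3 and Ankrd2 were lower and Pdlim7 was higher in HVCN1 null hearts. Of the 8 skeletal muscle genes, the troponins Tnnt3 (0.486 ± 0.331 against 1.09 ± 0.513 CPM, edgeR quasi-likelihood adjusted p = 0.409) and Tnni2 (0.801 ± 0.462 against 1.47 ± 0.679 CPM, adjusted p = 0.653) had lower means in HVCN1 null hearts. Of the others, Mylpf was at -0.04 and Actn3 at 0.12 on the log2 scale. Myh1 had 13 counts in HVCN1 null and 2 in WT hearts, Myh2 11 and 13, Myh4 2 and 1, and Pvalb 39 and 32. These skeletal muscle genes had low counts, and their part in these results was not tested. Tpm3, a further tropomyosin, had a log2 fold change of -0.40 (adjusted p = 0.0843) and Pdlim7, a PDZ and LIM protein like Pdlim3 and Pdlim5, one of 0.34 (adjusted p = 0.110). The most abundant of the other sarcomere genes, Myh6 and the ventricular regulatory light chain Myl2, had log2 fold changes of -0.01 (adjusted p = 0.997) and -0.09 (adjusted p = 0.946).

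Hearts of both genotypes differed in their level of atrial genes, and some sarcomere genes followed it. An atrial score, the mean log2 CPM of Nppa, Sln, Myl7, Myl4 and Bmp10, was 3.34, 9.15, 6.64 and 4.496 in the HVCN1 null hearts and 6.79, 0.383, 10.01 and -0.257 in the WT hearts. It was thus high in hearts 2, 3, 5 and 7. Nppa, Sln, Myl7 and Myl4 were each highest in these hearts. Bmp10, which did not pass the filter on low counts, had 418 and 574 CPM in hearts 2 and 7. In hearts 3 and 5 it had 0.0380 and 0.152 CPM, and in the remaining hearts at most 3.08 CPM. In a fit with genotype and score, 2 of the 36 genes had a slope past an adjusted p of 0.05, against 2.14% of all tested genes (2.05% rising with it). They were Tpm2 (0.18 log2 units per unit of score, standard error 0.03, adjusted p = 0.00711) and Pdlim3, an actinin-associated LIM protein (0.13, standard error 0.02, adjusted p = 0.00507), both rising with the score. Tpm2 had 33.9, 59.0, 60.7 and 21.7 CPM in HVCN1 null hearts and 64.8, 32.3, 93.05 and 25.02 CPM in WT hearts, so hearts 2, 3, 5 and 7 were the highest. Pdlim3 had 15.5, 30.8, 15.9 and 14.5 CPM in HVCN1 null and 17.5, 10.2, 22.9 and 10.03 CPM in WT hearts, again with hearts 2, 3, 5 and 7 the highest. Without WT hearts 6 and 8, which lay farthest from the median score, neither slope passed (adjusted p = 0.521 for Tpm2 and 0.225 for Pdlim3, with slopes of 0.19 and 0.16), nor did that of any other of the 36 genes, and 0.48% of all genes passed. Mybpc3 had a slope of -0.07 that did not pass (adjusted p = 0.0852).

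With the score as a covariate, 1 of the 36 genes passed between the genotypes, against 1.53% of all tested genes. The log2 fold change of Myot was then -1.28 (adjusted p = 0.0447), that of Actc1 -0.44 (adjusted p = 0.104) and that of Mybpc3 0.42 (adjusted p = 0.139). The log2 fold change was then below 0 for 23 of the 36 genes, with a median of -0.11. For the 54 tested other sarcomere genes the median was then -0.03, against -0.10 without the score.

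**Figure D4:**
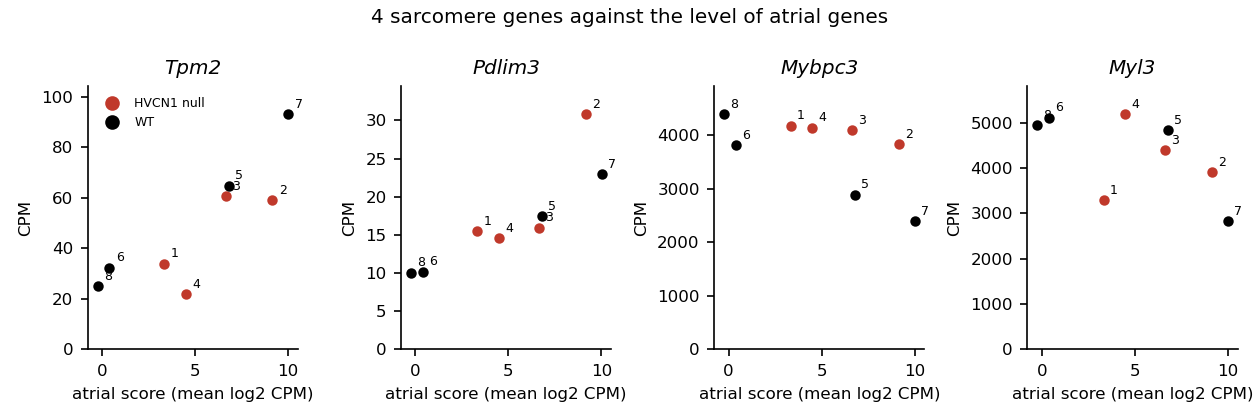
CPM of Tpm2, Pdlim3, Mybpc3 and Myl3 (vertical axes, from 0) against the atrial score in mean log2 CPM (horizontal axes) for the 8 numbered hearts, coloured by genotype. Tpm2 and Pdlim3 are highest in hearts 2, 3, 5 and 7, which have the highest scores, and Mybpc3 is lowest in WT hearts 5 and 7.

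Hearts also differed in how a gene's level went with transcript length. Across 8133 other genes, the Pearson correlation of the log2 deviation from the mean of the 8 hearts with log10 transcript length was 0.42, 0.30, -0.48 and -0.27 in HVCN1 null hearts and -0.57, 0.07, 0.32 and 0.16 in WT hearts. The 36 sarcomere genes had the same sign in every heart, with 0.49, 0.30, -0.54 and -0.21 in HVCN1 null hearts and -0.68, 0.11, 0.28 and 0.28 in WT hearts. These are descriptions across genes that share each library. HVCN1 null hearts 3 and 4 and WT heart 5 read long transcripts low, and both genotypes held hearts of either kind. The 18 longest genes (3028 bases and more) differed in median deviation from the 18 shortest (3013 bases and less) by 0.17, 0.19, -0.23 and -0.08 in HVCN1 null hearts and by -0.38, -0.02, 0.16 and 0.12 in WT hearts. The short Tnnt2, Tnni3 and Tcap were high in hearts 3 and 4, and the long Ttn, Xirp2 and Cmya5 were low there. For the short Tnnc1, hearts 3 and 4 had 2282 and 2047 CPM, beside 2176 to 2271 CPM in WT hearts 5, 6 and 8. With each heart's length slope as a covariate, the log2 fold change of Myot was again -1.46 with an adjusted p of 0.0591, so no sarcomere gene then passed, against 1.23% of all tested genes. Those of Tpm1 (-0.45, adjusted p = 0.134) and Trim54 (-0.35, adjusted p = 0.166) stayed near their values. What set the length pattern was not tested.

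**Figure D5:**
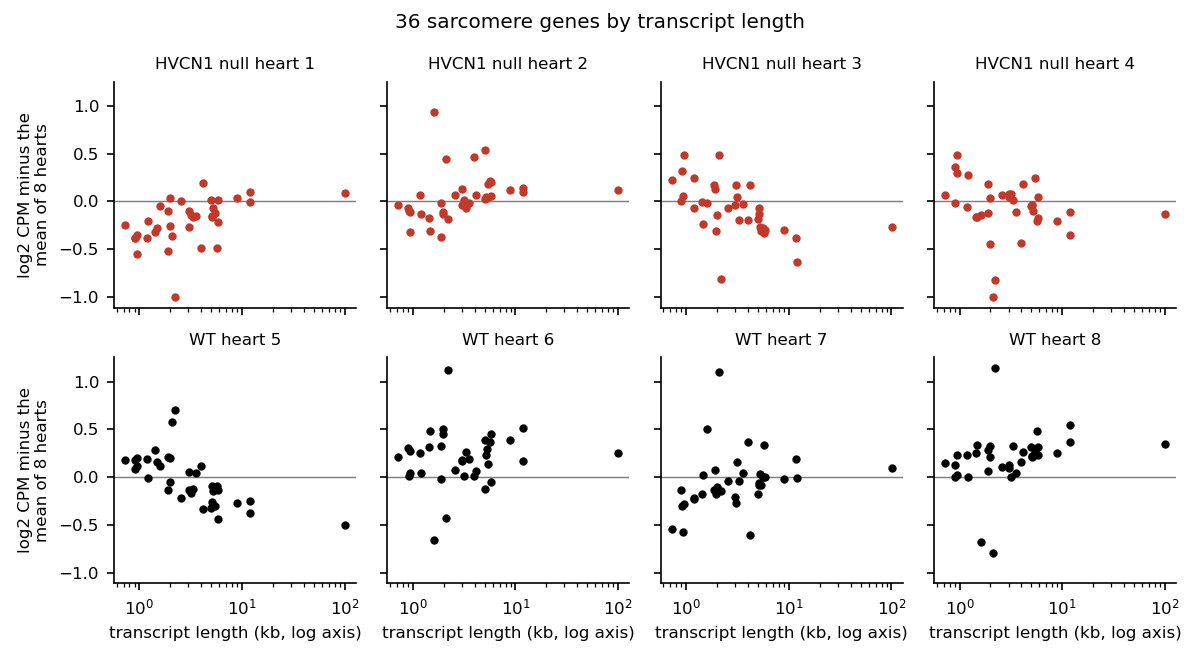
Log2 CPM of each of the 36 genes minus its mean over the 8 hearts (vertical axes) against the length of its principal transcript (kilobases, log axes), with 1 panel per heart. Points slope down in HVCN1 null heart 3 and WT heart 5 (correlations -0.54 and -0.68) and up in HVCN1 null heart 1 (0.49).

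Counts of some of these genes may hold reads of neighbours, or lack reads that match both genes. At 10 of the 36 genes some 50-base stretch of the main transcript also matched another annotated gene, and at 6 this held for more than 5% of positions. Beside Ankrd23 and Trim54 these were Tmod1 (39.8%, chiefly Tstd2 on the opposite strand), Cmya5 (19.5%), Unc45b (8.91%) and Des (5.81%). Library preparation kept strand, while the strand setting of the counting is not given in the sources used here. Actc1, Tpm1, Mybpc3 and Myot had no such position.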

How the data were processed

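RNA-seq libraries of 8 mouse hearts were analysed (4 HVCN1 null, 4 WT). Poly-A RNA was read as 2 × 50 nt pairs, which the authors mapped with STAR and assigned to Ensembl genes with featureCounts. They deposited the resulting counts, unnormalized, for every gene in each heart. The submitters' processing notes name mm10 and GRCm38, and tool versions are not given in the sources used here. Symbols and positions came from GENCODE M21 on GRCm38, where 38872 of 39056 genes (99.5%) matched by identifier.

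CPM values used TMM-scaled library sizes (edgeR 4.0.16, R 4.3.3). filterByExpr with its defaults kept 14796 genes, and edgeR's quasi-likelihood test compared the genotypes with a Benjamini-Hochberg adjusted p under 0.05. A positive log2 fold change is higher in HVCN1 null hearts. Log2 CPM values used a prior count of 2. Genes given heart by heart were the DEGs, the 2 largest and the smallest absolute log2 fold change in each structure, and genes whose groups did not overlap. Those shown for the atrial score (Tpm2, Pdlim3), Myom2, Synpo2l and Tcap were chosen after their values were seen. The members, structures and lists were chosen with earlier results of these data known.

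Alternatives were RLE scaling, unscaled library sizes, testing without the filter, a minimum CPM of 1 in at least 4 hearts, DESeq2 1.42.0, limma 3.58.1 voom, edgeR's exact and likelihood ratio tests, an adjusted p under 0.01, each heart left out in turn, and an atrial score as a covariate. Each heart's slope of log2 CPM on transcript length as a covariate, and the atrial slopes without WT hearts 6 and 8, were added after seeing the data. Transcript lengths are those of the APPRIS principal transcript. Promoters came from RefSeq on GRCm38.p6. The test was checked on simulated counts. Tables and plots were made with Python 3.11.15, pandas 2.3.3 and matplotlib 3.10.9. Total counts ran from 25851255 to 38874640 per heart.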

Additional observations from a re-analysis of the deposited data

Results flagged for a closer look

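A value stood apart from the other 3 of its group in 7 of the 72 sets of 4 hearts examined (36 genes, 2 groups), by a gap to the nearest heart that exceeded Dixon's 95% critical value as a share of the group's range. For a single set chance gives about 1 in 20. The 36 genes share hearts and libraries, so the count of 7 is a description and carries no test. In WT heart 7 the lowest value stood apart for 4 genes: Tnnc1 at 1346 CPM (the others from 2176 to 2271), Myl3 at 2833 CPM (from 4844 to 5122), Trim54 at 200.6 CPM (from 269 to 281) and Myoz2 at 629.8 CPM (from 834 to 869.5). WT heart 7 also had the highest atrial score, and none of these 4 genes had a score slope past an adjusted p of 0.05 over the 8 hearts (edgeR quasi-likelihood test). In HVCN1 null heart 2 the highest value stood apart for Myom2 at 1597 CPM (the others from 985 to 1071) and for Pdlim3 at 30.8 CPM (from 14.5 to 15.9). In WT heart 6 Unc45b was highest at 231.7 CPM, where the other WT hearts lay between 209.3 and 209.7 CPM.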

How the results depend on the processing

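The number of DEGs among all genes was 466 with DESeq2, 367 with edgeR's exact test, 376 with its likelihood ratio test and 56 at an adjusted p under 0.01, against 169, and 71 to 152 with a heart left out. The number of sarcomere genes past the threshold, 1 in the main setting, was 2 with DESeq2 and with library sizes not scaled (Actc1 and Myot), 0 with the length slope as a covariate and at an adjusted p under 0.01, and 0 to 1 with a heart left out. The median log2 fold change of the 36 genes stayed below 0 under all 18 alternatives run on it (-0.20 to -0.09 with a heart left out), 22 to 29 genes were below 0 with a heart left out, and the difference in the share of counts was -0.787 to -0.342 percentage points with a heart left out and -0.327 points of all counts.

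Of the 13 genes given heart by heart under the rule, 3 with values near 0 changed sign. Tmod1 was at 0.0097 with RLE scaling and with DESeq2, 0.032 with library sizes not scaled, 0.0052 without a filter, 0.00038 with the length slope, and -0.046 to 0.057 with a heart left out. Myl3 was at 0.030 with the atrial score and -0.24 to 0.020 with a heart left out, and Actn2 at -0.045 to 0.076 with a heart left out. The causes were not tested. No paired analysis was possible because the labels pair no HVCN1 null heart with a WT heart. With 4 hearts a group, the 95% intervals of the 36 genes reached a median of 0.34 log2 units to either side. A difference smaller than this reach of a gene's own interval could not be told from 0. The intervals are not adjusted for the number of genes. Larger differences, such as -0.51 for Actc1 (edgeR quasi-likelihood adjusted p = 0.105), also did not pass the adjusted threshold.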
